A study of Mus musculus with 6 samples.

Results

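The nuclear genes of the mitochondrial respiratory chain are the subject here: the subunits of complexes I to V that are encoded in the nucleus, with cytochrome c. They were chosen by symbol (Nduf, Sdh, Uqcr, Cox 4 to 8 and Atp5 names, and Cycs), which gave 83 of the 32285 genes listed. Of these, 36 carry complex I names, 4 complex II, 8 complex III, 17 complex IV and 17 complex V, and Cycs encodes cytochrome c. The subunit genes Ndufab1 and Cyc1, and Cox7a2l, Ndufa4l2 and Ndufb1-ps, fall outside the name pattern and were not counted as members. Ndufa4, named for complex I and since assigned to complex IV, was kept under its name. Every member was counted at least once, and 81 passed the filter on low counts over all nuclei, the exceptions being Cox8b and Cox8c.

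The respiratory chain passes electrons from NADH (complex I) and succinate (complex II) through complex III and cytochrome c to oxygen at complex IV, and complex V makes ATP from the resulting proton gradient. Most subunits are encoded in the nucleus, transcribed there and imported into mitochondria as proteins, while 13 subunits are encoded by mitochondrial DNA and transcribed inside the organelle. Complex I is known as a site where volatile anaesthetics inhibit respiration, and mice that lack its subunit Ndufs4 are known for heightened sensitivity to these drugs. Neurons depend on oxidative phosphorylation for synaptic transmission.

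Nuclei isolated from the frozen hippocampi of mice aged 18 to 20 months were sequenced singly. In the sevoflurane group (3 libraries), mice inhaled the volatile anaesthetic at 2% together with 60% oxygen for 6 h at 1 L/min. In the oxygen group (3 libraries), mice inhaled 60% oxygen without the anaesthetic for as long and at the same flow. The study's title is about delayed neurocognitive recovery and S-methyl-5-thioadenosine in blood, and the comparison asks what sevoflurane changed in the aged hippocampus. The labels give no strain and do not say how many animals a library holds, so a p-value reflects only how libraries spread, which may be technical. Below, the values of a group's 3 libraries are in the order of their replicate numbers, in CPM (counts scaled to 1 fixed total with TMM-normalised library sizes). A fold change is the log2 of sevoflurane over oxygen with its standard error (SE), and genes with an adjusted p under 0.05 in edgeR's quasi-likelihood test were called, with Benjamini-Hochberg adjustment over all genes tested in that set of nuclei.

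The deposited libraries held 56334621 to 72636984 UMIs (counted molecules), and 52034 nuclei were kept. Nuclei were clustered without the members and named from markers, hence class names ending in "-like". The 14 classes with at least 20 nuclei in each library were tested, and dentate granule-like, CA1, CA2 and CA3 pyramidal-like neurons were among them, as the hippocampal label requires. Unnamed clusters held 26.27% of nuclei. Among them, cluster 3 (4213 nuclei, median 770 UMIs) was led by S100a6 and Ttr and had Atp5e among its leading genes, and cluster 25 (536 nuclei) was led by Tuba4a and Nhp2 and had Uqcr11 and Atp5g1 among them. Cluster 3 made up 4.459, 9.154 and 8.966% of nuclei in the sevoflurane libraries, against 13.41, 5.67 and 7.847% in the oxygen libraries. Choroid plexus-like nuclei were at 0 in the sevoflurane libraries, against 0.793, 0.181 and 1.276% in the oxygen libraries. Sevoflurane replicate 1, labelled male, had 1333 CPM of Xist, against at most 1.16 CPM in every other library, and in 3 of 6 libraries the labelled sex differed from the sex-linked genes. Of the members, 3 (Ndufa1, Ndufb11 and Cox7b) are X-linked and 0 are Y-linked. At most 33 barcodes (0.362%) were shared by a pair of libraries.

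The promoters of 68 members were matched in RefSeq (GRCm38.p6, 250 bases before to 50 after the gene start) and searched on both strands for a core of the Nrf1 motif, GCGCATGC, and for an ETS motif bound by Gabpa, CCGGAAGT. Nrf1 and Gabpa are transcription factors known to act on respiratory chain genes. The Nrf1 core was found in 11 of the 68 (16.2%), against 3.05% of 27025 promoters of all genes. These were Ndufa11, Ndufa6, Ndufa8, Sdhb, Uqcr11, Uqcrc1, Cycs, Cox6a1, Atp5g2, Atp5k and Atp5l. The ETS motif was found in 5 (7.35%), Ndufs3, Uqcr11, Uqcrh, Cox8a and Atp5h, against 4.31% of all promoters. A match is a description of the letters and no evidence of binding. Below are 280 bases (250 before to 30 after the start) of a member called in CA1 pyramidal-like nuclei and of 3 members with a motif, from different complexes, with motif matches in capitals. They are Ndufb4 (complex I, 0 matches, chr16:37654339-37654618, minus strand), Sdhb (complex II, an Nrf1 core, chr4:140961021-140961300, plus strand), Uqcr11 (complex III, an ETS motif and an Nrf1 core, chr10:80406792-80407071, minus strand) and Cycs (an Nrf1 core, chr6:50566540-50566819, minus strand).
Ndufb4: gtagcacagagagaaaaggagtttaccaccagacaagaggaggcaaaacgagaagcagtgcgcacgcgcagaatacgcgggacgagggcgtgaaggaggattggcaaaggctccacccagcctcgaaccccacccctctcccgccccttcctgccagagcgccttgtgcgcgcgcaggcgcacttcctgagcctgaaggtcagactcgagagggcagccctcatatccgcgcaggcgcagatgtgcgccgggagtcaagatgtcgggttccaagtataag
Sdhb: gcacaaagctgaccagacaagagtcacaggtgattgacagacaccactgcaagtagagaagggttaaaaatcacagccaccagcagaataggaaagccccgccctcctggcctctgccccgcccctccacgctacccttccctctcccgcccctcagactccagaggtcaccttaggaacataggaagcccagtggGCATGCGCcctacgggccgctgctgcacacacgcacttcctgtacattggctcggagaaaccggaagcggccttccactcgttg
Uqcr11: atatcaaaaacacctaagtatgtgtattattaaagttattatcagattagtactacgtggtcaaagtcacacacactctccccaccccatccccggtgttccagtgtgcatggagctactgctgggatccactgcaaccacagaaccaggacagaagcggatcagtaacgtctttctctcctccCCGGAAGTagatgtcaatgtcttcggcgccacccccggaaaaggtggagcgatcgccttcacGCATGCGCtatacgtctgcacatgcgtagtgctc
Cycs: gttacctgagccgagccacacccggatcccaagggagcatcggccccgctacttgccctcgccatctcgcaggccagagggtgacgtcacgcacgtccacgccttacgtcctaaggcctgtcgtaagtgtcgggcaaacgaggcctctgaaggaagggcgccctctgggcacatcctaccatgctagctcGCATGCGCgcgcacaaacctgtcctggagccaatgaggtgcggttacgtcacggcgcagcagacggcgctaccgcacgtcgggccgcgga

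Summed over all nuclei, the 83 members stood at 4230, 4934 and 3624 CPM in the sevoflurane libraries and at 4115, 3436 and 3854 CPM in the oxygen libraries. The groups overlapped: sevoflurane replicate 2 was the highest library and oxygen replicate 2 the lowest, while sevoflurane replicate 3 lay below oxygen replicates 1 and 3. The means were 4263 ± 656 CPM after sevoflurane and 3802 ± 343 CPM with oxygen (SD, n = 3 each), a log2 ratio of 0.165. Scaled by total UMIs in place of TMM, the ratio was 0.264. The TMM-scaled ratio of 0.165 was 0.0467 without sevoflurane replicate 2 and 0.0973 without oxygen replicate 2. Sums over members were given no test. In the sum over all nuclei, a change in the shares of classes and a change within nuclei cannot be told apart. Without clusters 3 and 25 the ratio was 0.167, and without choroid plexus-like nuclei 0.164.

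**Figure D1:**
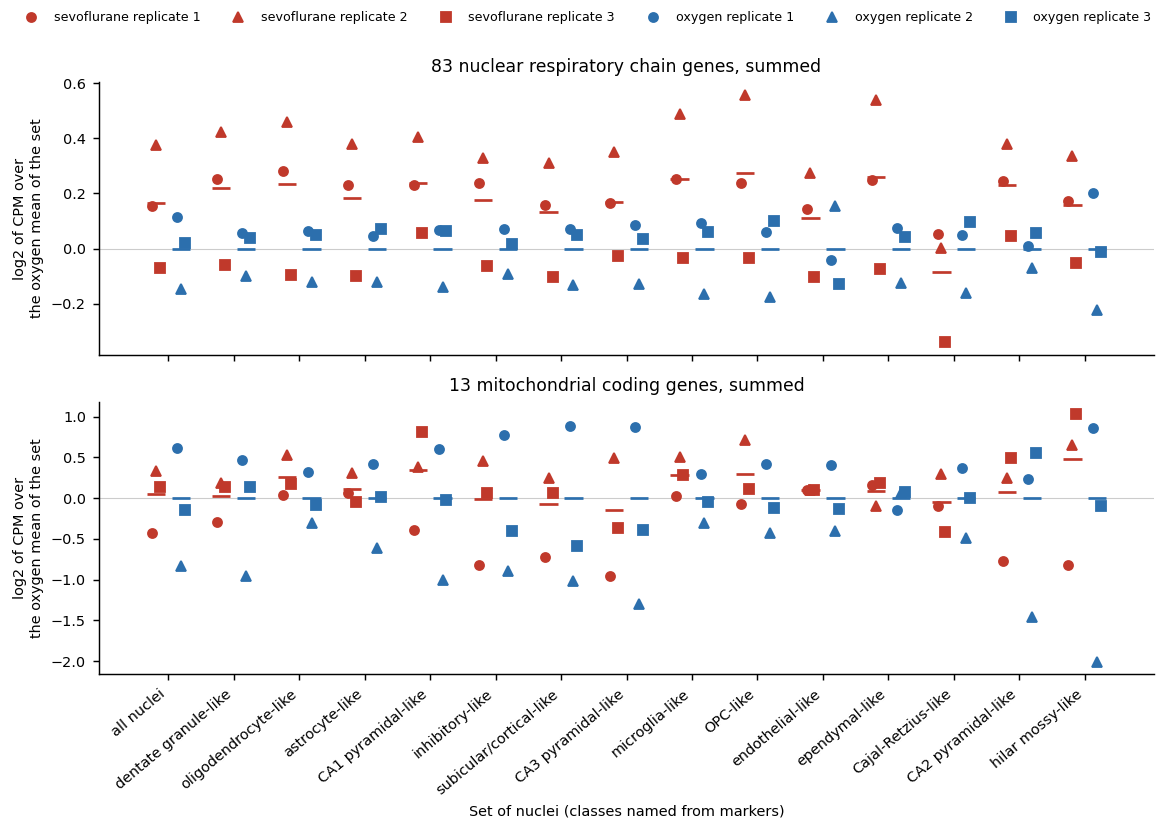
Summed CPM of the 83 members (top) and of the 13 mitochondrial coding genes (bottom) per library, as the log2 over the oxygen mean of the same set, in all nuclei and the 14 tested classes; short lines are group means. Sevoflurane replicate 2 (red triangles) was the highest for the members in 13 of the 14 classes and oxygen replicate 2 (blue triangles) the lowest in 12, and the groups overlapped in each class.

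Gene by gene over all nuclei, 0 of the 81 members tested were called, where 426 of 20792 genes were called (2.05%, and 0 to 242 genes with 1 library left out). By unadjusted p under 0.05 there were 4, and DESeq2 called 1 (Cox6b2, -0.814, adjusted p 0.0178). The shares of all genes by these measures are not given here. Fold changes of 75 of the 81 were above 0, with a median of 0.187, beside a median of 0.012 over all genes, of which 52.4% were above 0. Sevoflurane replicate 2 was the highest library in 71 of the 81 members, and oxygen replicate 2 the lowest in 59. The groups did not overlap in 3 members: Sdha and Ndufv3, higher in each sevoflurane library (12.1% of all genes did so), and Cox6b2, lower in each (13.2% of all genes did so).

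Complex I, the NADH dehydrogenase, had 35 of 36 fold changes above 0, with a median of 0.196 and a range of -0.07 to 0.31. Ndufc1, an accessory subunit, was at 37.0, 39.6 and 29.1 CPM after sevoflurane, against 32.9, 23.3 and 29.1 CPM with oxygen (0.31, SE 0.155, edgeR adjusted p 0.336). The groups overlapped, since sevoflurane replicate 3 lay at the level of oxygen replicate 3. Ndufa4 was at 88.9, 111.5 and 66.6 CPM after sevoflurane and at 81.9, 66.9 and 72.9 CPM with oxygen (0.27, edgeR adjusted p 0.475), again with sevoflurane replicate 2 highest and sevoflurane replicate 3 lowest. Ndufv3, a subunit of the NADH-binding module, was at 31.1, 35.5 and 29.2 CPM after sevoflurane, against 28.6, 25.3 and 29.2 CPM with oxygen, with an edgeR adjusted p of 0.282. Sevoflurane replicate 3 and oxygen replicate 3 were nearly equal in that gene. The 1 member of complex I below 0 was Ndufs4, an accessory subunit of the same module, at 107, 109 and 105 CPM after sevoflurane and at 109, 114 and 115 CPM with oxygen (-0.07, SE 0.0493, edgeR adjusted p 0.516). Its libraries spread little in either group, and it spans 100.464 kb (chr13:114287795-114388258).

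Complex II, the succinate dehydrogenase, had the smallest spread between libraries. Its 4 genes summed to 175.5, 181.2 and 173.0 CPM after sevoflurane, against 175.0, 163.4 and 173.1 CPM with oxygen. Sdha, the flavoprotein that oxidises succinate (chr13:74322254-74350280), was at 91.6, 92.9 and 92.3 CPM after sevoflurane, against 85.4, 85.4 and 85.7 CPM with oxygen (0.11, SE 0.0449, edgeR adjusted p 0.242). The groups did not overlap, but the difference was small and not called. Sdhb, the iron-sulfur subunit (chr4:140961203-140979193), was at 39.3, 38.3 and 34.8 CPM after sevoflurane and at 43.5, 34.4 and 43.1 CPM with oxygen (-0.11, SE 0.101, edgeR adjusted p 0.611). Here the oxygen libraries spread most, and both groups overlapped.

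In complex III, which passes electrons to cytochrome c, 8 of 8 members were above 0 (median 0.18, from 0.03 to 0.27). Uqcrc2, a core subunit, was at 62.1, 70.0 and 61.7 CPM after sevoflurane, against 69.3, 61.6 and 58.3 CPM with oxygen (0.03, edgeR adjusted p 0.857). Uqcrh, the hinge subunit, was at 65.8, 74.7 and 53.8 CPM after sevoflurane, against 63.3, 52.4 and 57.4 CPM with oxygen (0.17, edgeR adjusted p 0.516). In both genes the highest library was sevoflurane replicate 2 and the groups overlapped. Cycs, the electron carrier that also triggers apoptosis when released, was at 34.6, 44.9 and 29.0 CPM after sevoflurane and at 35.8, 28.0 and 31.0 CPM with oxygen (0.20, edgeR adjusted p 0.57).

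In complex IV, the cytochrome c oxidase, 11 of 15 members tested were above 0 (median 0.14), and the range was the widest of the complexes, from -0.81 to 0.36. Cox6c, a small subunit of mammalian complex IV (chr15:35925886-35938246), was at 152, 172 and 117 CPM after sevoflurane, against 126, 102 and 116 CPM with oxygen (0.36, SE 0.143, edgeR adjusted p 0.239). Sevoflurane replicate 3 was close to oxygen replicate 3 and below oxygen replicate 1. Cox4i1, the common isoform of subunit 4, was at 138.6, 175.6 and 110.8 CPM after sevoflurane, against 136.9, 107.9 and 125.4 CPM with oxygen (0.20, edgeR adjusted p 0.572). Cox6b2, the isoform of subunit 6b best known from testis (chr7:4751792-4753094), was at 1.157, 1.321 and 1.611 CPM after sevoflurane, against 2.005, 2.374 and 2.799 CPM with oxygen (-0.81, SE 0.194, edgeR adjusted p 0.0782). Its groups did not overlap, at levels of 78 to 116 UMIs per sevoflurane library and 106 to 150 UMIs per oxygen library, and edgeR did not call it. Vascular leptomeningeal-like nuclei, where Cox6b2 stood high, were 0.401, 0.201 and 1.06% of nuclei after sevoflurane, against 0.921, 0.794 and 1.3% with oxygen. Within astrocyte-like nuclei Cox6b2 overlapped between groups, at 13.5, 8.81 and 15.4 CPM after sevoflurane, against 9.74, 18.5 and 18.3 CPM with oxygen. For this gene over all nuclei, too, changed class shares and a change within nuclei cannot be told apart. Complex V, the ATP synthase, had 17 of 17 members above 0 (median 0.187, from 0.01 to 0.29). Atp5a1, the alpha subunit, was at 134.7, 158.4 and 124.8 CPM after sevoflurane, against 137.7, 120.8 and 134.1 CPM with oxygen (0.09, edgeR adjusted p 0.65). Atp5b, the catalytic beta subunit, was at 128.3, 158.3 and 122.2 CPM after sevoflurane, against 136.7, 110.5 and 120.8 CPM with oxygen (0.15, edgeR adjusted p 0.524). Both overlapped between groups.

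**Figure D2:**
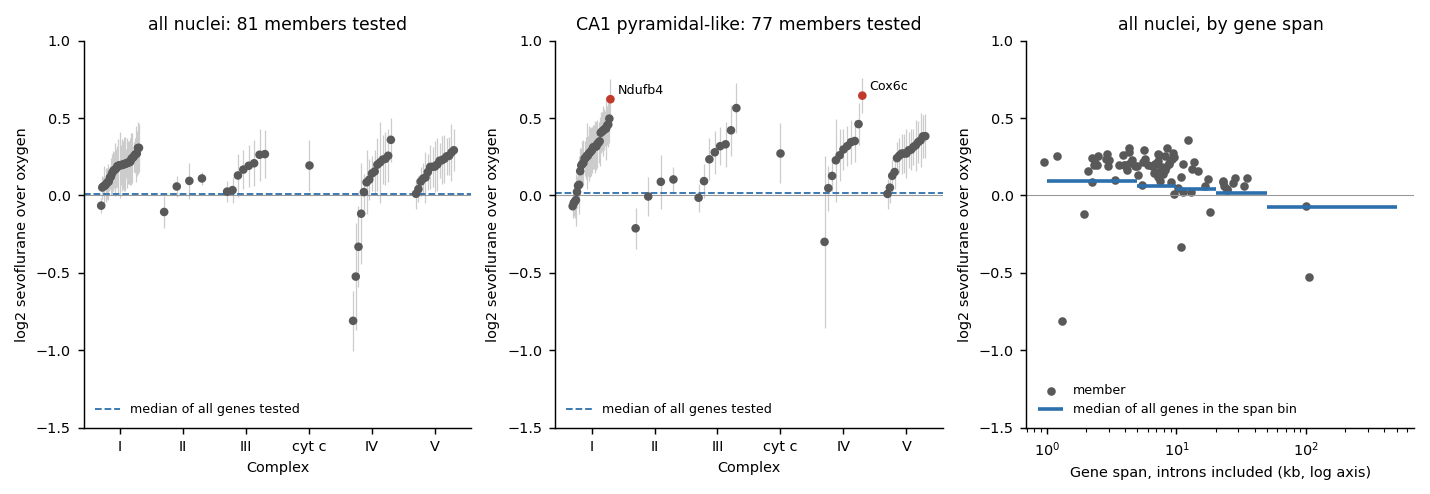
Fold change (log2 sevoflurane over oxygen) with SE of each member tested, by complex, in all nuclei (left) and in CA1 pyramidal-like nuclei (middle), and against the genomic span of the gene in all nuclei (right). Red points are called, the dashed line is the median of all genes tested and the blue bars are medians of all genes in a span bin, which fall from 0.0905 below 5 kb to -0.0723 above 50 kb.

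The members are short genes, and short genes as a whole stood higher after sevoflurane. Over all nuclei the median fold change of all genes was 0.0905 for spans under 5 kb, 0.0583 for 5 to 10 kb, 0.0409 for 10 to 20 kb, 0.019 for 20 to 50 kb and -0.0723 above that. The members' medians in the same bins were 0.198 (27 members), 0.20 (30), 0.109 (13), 0.0774 (9) and -0.295 (2). The members lay above the bin's median in each bin but the last, and their medians were lower in the 3 bins above 10 kb than in the bins below it. A span correction was fitted in each set of nuclei, and members' fold changes with it are given here only for CA1 pyramidal-like nuclei. Beyond that correction, the part of span in the members' values was not tested.

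CA1 pyramidal-like nuclei (479 to 820 per sevoflurane library and 424 to 683 per oxygen library) were the only tested class with called members. A call in this class and not in others does not show a difference between classes, and no test compared it with another class. There, 2 of 77 members tested were called, both higher after sevoflurane, beside 323 of 14071 genes called in either direction (2.3%) and 90 called higher (0.64%). Fold changes of 69 of the 77 were above 0, with a median of 0.277, against 0.0138 over all genes. By unadjusted p under 0.05 there were 30, and DESeq2 called 4 (Uqcr11, Cox6c, Ndufb4 and Cox8a). The shares of all genes by these measures are not given here, so the counts have no background beside them. The count of 2 was 0 to 9 when 1 library was left out, with 9 without sevoflurane replicate 3 and 0 without sevoflurane replicate 2, oxygen replicate 1 or oxygen replicate 2.

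Cox6c was at 108, 118 and 91.5 CPM after sevoflurane, against 72.2, 58.8 and 73.1 CPM with oxygen in CA1 pyramidal-like nuclei. Each sevoflurane library stood above each oxygen library, with means of 106 ± 13.5 and 68.0 ± 8.04 CPM (SD, n = 3 each). The fold change was 0.65 (SE 0.113, edgeR adjusted p 0.0132). The call was lost without sevoflurane replicate 2 (0.56, adjusted p 0.0589), oxygen replicate 1 (0.69, adjusted p 0.0531) or oxygen replicate 2 (0.54, adjusted p 0.088). Cox6c lies on the minus strand and shares 5344 bp with Vps13b on the plus strand, which stood at -0.15 (edgeR adjusted p 0.306) in the same nuclei. Whether counting used strand is not given in the sources used here.

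Ndufb4, an accessory subunit of the membrane arm of complex I (chr16:37647170-37654453), was at 35.1, 35.0 and 27.5 CPM after sevoflurane and at 20.9, 21.0 and 21.5 CPM with oxygen. The oxygen libraries lay close together and below each sevoflurane library, with means of 32.5 ± 4.32 and 21.2 ± 0.332 CPM (SD, n = 3 each). The fold change was 0.62 (SE 0.127, edgeR adjusted p 0.0276). The call was lost without sevoflurane replicate 2 (0.57, adjusted p 0.107), oxygen replicate 1 (0.61, adjusted p 0.0982), oxygen replicate 2 (0.61, adjusted p 0.141) or oxygen replicate 3 (0.63, adjusted p 0.106). Both calls held without sevoflurane replicate 1, the library with Xist (adjusted p 0.0258 for Cox6c and 0.0446 for Ndufb4). With a correction for gene span both held, at 0.60 (adjusted p 0.0227) for Cox6c and 0.54 (adjusted p 0.0487) for Ndufb4. The annotation lists near copies, Ndufb4b and Ndufb4c for Ndufb4 and the pseudogene Cox6c2 for Cox6c, that are no features of the count matrices, and their part in these counts was not tested.

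Of the 77 members in CA1 pyramidal-like nuclei, 0 were lower in each sevoflurane library than in each oxygen library (11.9% of all genes were). Higher in each were 17 of the 77 (10.7% of all genes were). They came from complexes I to IV and included Uqcr11, a small subunit of complex III, at 34.4, 44.3 and 32.5 CPM after sevoflurane, against 26.9, 19.8 and 29.3 CPM with oxygen (0.56, edgeR adjusted p 0.101). Cox8a, a small subunit of complex IV, was at 100.5, 121 and 86.2 CPM after sevoflurane and at 83.1, 63.5 and 78.1 CPM with oxygen (0.46, edgeR adjusted p 0.117). Ndufa5, an accessory subunit of complex I, was at 46.0, 43.7 and 39.1 CPM after sevoflurane, against 35.1, 29.0 and 32.0 CPM with oxygen (0.43, edgeR adjusted p 0.0697). These 3 were not called. Other members without overlap included Cox6b1, Ndufa13, Uqcrfs1, Sdha, Ndufv3 and Ndufb8. Complex II again differed least, with sums of 154.3, 146.3 and 143.9 CPM after sevoflurane, against 149.2, 143.1 and 152.6 CPM with oxygen. Sdhb was at 42.1, 30.3 and 34.6 CPM after sevoflurane and at 43.2, 36.7 and 44.5 CPM with oxygen (-0.21, edgeR adjusted p 0.452). The complex IV sums were 696.4, 791.6 and 560 CPM after sevoflurane, against 556.5, 500 and 570.3 CPM with oxygen. Oxygen replicate 3 lay above sevoflurane replicate 3 in that sum, so the groups overlapped.

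In the other 13 tested classes 0 members were called in edgeR's test, with 1 to 19 per class at an unadjusted p under 0.05. Shares of all genes at that unadjusted p are not given here. DESeq2 called Cox6c in dentate granule-like and in inhibitory-like nuclei. Without sevoflurane replicate 3, whose members' sum over all nuclei was the lowest of the sevoflurane libraries, edgeR called 34 over the 14 classes, 17 of them in dentate granule-like and 9 in CA1 pyramidal-like nuclei. Shares of all genes called without that library are not given here, and the shares that follow are with each library kept. The share of all genes called was 4.63% in dentate granule-like, 0.887% in oligodendrocyte-like, 2.16% in astrocyte-like, 1.53% in inhibitory-like, 1.35% in CA3 pyramidal-like and 1.01% in subicular or cortical excitatory-like nuclei. It was 0.443% in microglia-like, 1.16% in oligodendrocyte precursor-like, 2.59% in endothelial-like, 0.499% in ependymal-like, 9.05% in Cajal-Retzius-like, 0.439% in CA2 pyramidal-like and 0% in hilar mossy-like nuclei. The median fold change of the members was above 0 in 13 of the 14 classes, from 0.105 in endothelial-like to 0.336 in oligodendrocyte precursor-like nuclei, while medians of all genes were between 0.00396 and 0.0222. Cajal-Retzius-like nuclei were the exception, with a members' median of -0.126 and 22 of 61 above 0. That class joins clusters 35 and 42, and the groups lay mostly in different ones: cluster 42 held 51, 62 and 34 sevoflurane nuclei, against 1, 5 and 0 oxygen nuclei, and cluster 35 held 52, 20 and 19 sevoflurane nuclei, against 21, 42 and 36 oxygen nuclei. In cluster 35 alone, an alternative chosen after seeing the clusters, the members' sum was 12299, 14685 and 10552 CPM after sevoflurane, against 10709, 8946 and 10517 CPM with oxygen. The log2 ratio of that sum was 0.315, against -0.0858 for the whole class, so the direction was not the same in the whole class and in cluster 35.

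In the 14 classes, 5.6 to 13.7% of all genes were higher in each sevoflurane library than in each oxygen library, and 6.48 to 13% were lower in each. Of the members, 13 of 77 were higher in each sevoflurane library in CA3 pyramidal-like nuclei (8.19% of all genes), 12 of 69 in CA2 pyramidal-like (7.51%), 9 of 66 in hilar mossy-like (5.6%) and 8 of 78 in inhibitory-like nuclei (8.91%). In dentate granule-like nuclei 2 of 78 members were so (11.8%), in subicular or cortical excitatory-like nuclei 4 of 77 (8.81%) and in Cajal-Retzius-like nuclei 4 of 61 (13.7%). Among the other classes there were 9 of 76 in oligodendrocyte precursor-like (7.31%), 8 of 76 in microglia-like (5.87%), 6 of 78 in astrocyte-like (9.12%), 5 of 73 in ependymal-like (7.64%), 4 of 78 in oligodendrocyte-like (8.06%) and 1 of 77 in endothelial-like nuclei (9.76%). The members' share was thus above that of all genes in CA1, CA2 and CA3 pyramidal-like, hilar mossy-like, inhibitory-like, oligodendrocyte precursor-like and microglia-like nuclei, and below it in the others. In inhibitory-like, astrocyte-like and ependymal-like nuclei it was close to that of all genes. These shares were not tested. Lower in each sevoflurane library were 4 of 61 members in Cajal-Retzius-like nuclei (11.5% of all genes) and 2 of 69 in CA2 pyramidal-like nuclei (8.58%). So was 1 of 78 in dentate granule-like (13%) and in inhibitory-like nuclei (10.6%). In endothelial-like nuclei 1 of 77 was lower (9.67%), and in hilar mossy-like nuclei 1 of 66 (6.48%). In each other class 0 were. The classes come from the same 6 libraries and are not independent of each other.

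Dentate granule-like nuclei, the largest class, had 74 of 78 members above 0 (median 0.224). Cox6c was at 215, 204 and 135 CPM there after sevoflurane, against 124, 124 and 150 CPM with oxygen (0.48, edgeR adjusted p 0.239, DESeq2 adjusted p 0.0253). Atp5mpl, a small subunit of complex V, was at 35.5, 37.5 and 24.2 CPM after sevoflurane, against 24.5, 21.5 and 23.1 CPM with oxygen (0.49, edgeR adjusted p 0.125). In both genes sevoflurane replicates 1 and 2 stood high and replicate 3 lay within the oxygen range. Ndufs4 was lower in each sevoflurane library, at 111, 114 and 106 CPM, against 114, 116 and 120 CPM with oxygen, by a small and uncalled margin (-0.08, edgeR adjusted p 0.544). In CA3 pyramidal-like nuclei Ndufb7, an accessory subunit of complex I, was at 18.0, 19.4 and 14.7 CPM after sevoflurane, against 12.97, 10.42 and 9.30 CPM with oxygen (0.68, edgeR adjusted p 0.0945). In inhibitory-like nuclei Ndufa1, a small subunit of complex I, was at 24.4, 23.2 and 12.2 CPM after sevoflurane, against 13.3, 11.2 and 13.6 CPM with oxygen (0.63, edgeR adjusted p 0.267). The first of these genes showed no overlap, and the second did.

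Among glial classes, oligodendrocyte-like nuclei had 74 of 78 members above 0 (median 0.214). Ndufc1 was at 96.5, 98.4 and 65.3 CPM there after sevoflurane, against 66.2, 57.8 and 64.0 CPM with oxygen (0.47, edgeR adjusted p 0.214), with sevoflurane replicate 3 inside the oxygen range. In microglia-like nuclei Ndufb6, an accessory subunit of complex I, was at 50.1, 62.9 and 62.5 CPM after sevoflurane, against 37.8, 22.7 and 38.8 CPM with oxygen (0.85, edgeR adjusted p 0.277). In oligodendrocyte precursor-like nuclei Ndufa3 was at 56.6, 69.8 and 47.7 CPM after sevoflurane and at 44.9, 23.2 and 35.5 CPM with oxygen (0.78, edgeR adjusted p 0.149). Neither of these pairs overlapped, and neither was called. In astrocyte-like nuclei Cox7b2, best known from testis, was at 11.95, 7.55 and 13.6 CPM after sevoflurane, against 17.6, 13.5 and 45.0 CPM with oxygen (-1.16, SE 0.521, edgeR adjusted p 0.37). Oxygen replicate 3 stood far above the other libraries in that gene. Ependymal-like nuclei had Cox6b1, the common 6b isoform, at 128, 159 and 135 CPM after sevoflurane, against 78.5, 75.3 and 70.2 CPM with oxygen (0.92, edgeR adjusted p 0.095). The groups lay well apart in this class of 542 nuclei, but the gene was not called.

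Of the smaller classes, Cajal-Retzius-like nuclei (22 to 103 per library) had Atp5e, the epsilon subunit of complex V, at 66.6, 58.7 and 45.2 CPM after sevoflurane, against 156, 98.6 and 72.9 CPM with oxygen (-0.85, edgeR adjusted p 0.176). Ndufs4 differed the other way in that class, at 161, 155 and 193 CPM after sevoflurane and at 125, 91.5 and 134 CPM with oxygen (0.58, edgeR adjusted p 0.276). Hilar mossy-like nuclei (33 to 45 per library) had Atp5mpl at 14.7, 10.3 and 11.3 CPM after sevoflurane, against 29.9, 22.8 and 22.4 CPM with oxygen (-1.01, edgeR adjusted p 0.605). The groups did not overlap in these 3 cases, and the few nuclei per library limit the precision. In cluster 35 of the Cajal-Retzius-like nuclei alone, Atp5e overlapped between groups, at 125, 178 and 112 CPM after sevoflurane, against 255, 122 and 104 CPM with oxygen. Ndufs4 was higher there in each sevoflurane library, at 240, 237 and 253 CPM, against 178, 110 and 191 CPM with oxygen (0.65, edgeR adjusted p 0.894). These values rest on 4 to 23 UMIs per library. In endothelial-like nuclei Ndufa4 was at 333, 323 and 216 CPM after sevoflurane, against 222, 232 and 173 CPM with oxygen (0.45, edgeR adjusted p 0.308). In CA2 pyramidal-like nuclei Ndufc1 was at 18.2, 24.1 and 18.9 CPM after sevoflurane, against 5.11, 15.2 and 12.8 CPM with oxygen (0.89, edgeR adjusted p 0.365).

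Summed by complex and class, the members' log2 ratio was between -0.0858 (Cajal-Retzius-like) and 0.274 (oligodendrocyte precursor-like), with a median over each tested class of 0.20 (0.0966 without sevoflurane replicate 2 and 0.31 without sevoflurane replicate 3). The groups overlapped in each of the 14 for the sum of all members, for complex I (median 0.188), for complex III (0.19) and for complex IV (0.224). Complex V (0.207) was higher in each sevoflurane library in 1 class, CA2 pyramidal-like nuclei, at 754.6, 853.6 and 671.9 CPM, against 643.7, 617.1 and 644.2 CPM with oxygen. Complex II had the lowest median of the complexes (0.15) and was higher in each sevoflurane library in 6 of the 14 classes, in which 7.64 to 13.7% of single genes were so. In astrocyte-like nuclei its sum was 318.7, 295.7 and 286.7 CPM after sevoflurane, against 259.8, 256.1 and 281.2 CPM with oxygen. In oligodendrocyte-like nuclei it was 275.4, 284.0 and 249.8 CPM after sevoflurane, against 246.8, 232.7 and 245.8 CPM with oxygen. In dentate granule-like nuclei it was 161.4, 172.0 and 155.9 CPM after sevoflurane, against 150.2, 149.4 and 146.9 CPM with oxygen. In each of these 3 classes every sevoflurane library lay above every oxygen library, as also in inhibitory-like, ependymal-like and Cajal-Retzius-like nuclei. Cycs was lower in each sevoflurane library in Cajal-Retzius-like nuclei, at 77.7, 80.1 and 49.3 CPM, against 140.3, 91.5 and 85.1 CPM with oxygen. In cluster 35 of that class alone, Cycs overlapped, at 136, 266 and 56.1 CPM after sevoflurane, against 229, 147 and 122 CPM with oxygen. The complex II sum stayed apart there, at 480, 622 and 365 CPM after sevoflurane, against 255, 318 and 296 CPM with oxygen.

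Whether the response differed between classes was tested with limma on the differences within each library. Between dentate granule-like and oligodendrocyte-like nuclei, 0 of 77 members were called (0 at an unadjusted p under 0.05), where 0.372% of all genes were. The median difference was 0.01, and the smallest adjusted p was 0.551 for Atp5b (-0.18, SE 0.0964). Between astrocyte-like and dentate granule-like nuclei, 0 of 77 were called (3 at an unadjusted p under 0.05), where 1.76% of all genes were. The smallest adjusted p was 0.282, for Ndufa4 (-0.28, SE 0.114). The median SE of a difference was 0.12 and 0.129 in these pairs of classes, so differences in response of such a size could not be detected.

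The 13 mitochondrial coding genes summed to 2643, 4476 and 3901 CPM after sevoflurane, against 5452, 1993 and 3204 CPM with oxygen over all nuclei, a log2 ratio of 0.049. The sign of this ratio rested on single libraries: it was -0.237 without oxygen replicate 2, -0.118 without sevoflurane replicate 2 and -0.0191 without oxygen replicate 3, but 0.499 without oxygen replicate 1 and 0.239 without sevoflurane replicate 1. Without sevoflurane replicate 3 it was 0.00408, and scaled by total UMIs it was 0.146. The oxygen group held both the highest library (replicate 1) and the lowest (replicate 2). In edgeR's test 0 of the 13 were called in all nuclei or in any tested class (at an unadjusted p under 0.05, 0 over all nuclei, 2 in microglia-like and 1 in ependymal-like nuclei), DESeq2 called 0, and the smallest adjusted p over all nuclei was 0.875. The subunit gene of complex IV mt-Co1 was at 373.6, 565.8 and 519.4 CPM after sevoflurane, against 648.5, 296.6 and 446.7 CPM with oxygen. The complex I genes among the 13 summed to 703.3, 1166 and 992.5 CPM after sevoflurane, against 1391, 527.4 and 819.7 CPM with oxygen. Library order thus differed between the genomes: oxygen replicate 1 was the highest library of the mitochondrial sum in 7 of the 14 classes, and of the nuclear members' sum in 0. Oxygen replicate 2 was the lowest library of the mitochondrial sum in 13 classes and of the members' sum in 12. In CA1 pyramidal-like nuclei the mitochondrial sum was 1617, 2766 and 3711 CPM after sevoflurane, against 3217, 1060 and 2092 CPM with oxygen, a log2 ratio of 0.346 with overlap of the groups. It was 0.0233 without oxygen replicate 2 and 0.0455 without sevoflurane replicate 3, but 0.775 without oxygen replicate 1 and 0.609 without sevoflurane replicate 1. Their transcripts are made outside the nucleus, and their median share of a nucleus's UMIs was 0.241, 0.396 and 0.346% in the sevoflurane libraries, against 0.433, 0.148 and 0.221% in the oxygen libraries. The part of residual cytoplasm in these values was not tested.

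Other lists of genes were set beside the members. Cytosolic ribosomal protein genes, likewise short and abundant, had 81 of 82 fold changes above 0 over all nuclei (median 0.227) and summed to 5327, 5745 and 4263 CPM after sevoflurane, against 4837, 3858 and 4432 CPM with oxygen. Sevoflurane replicate 2 was the highest library of that sum in 11 of 14 classes and oxygen replicate 2 the lowest in 12, the same libraries as for the members. In CA1 pyramidal-like nuclei 7 of 81 rose, among them Rps4x (0.60, edgeR adjusted p 0.0252) and Rpl21 (0.58, edgeR adjusted p 0.0317), and DESeq2 called 10. With the span correction, and without sevoflurane replicate 2 or any oxygen replicate, Rps4x and Rpl21 were not called there. Over all nuclei 0 were called by either tool (8 at an unadjusted p under 0.05). Genes of mitochondrial ribosomal proteins, which serve translation inside mitochondria, had 64 of 78 above 0 (median 0.0822), with 0 called over all nuclei (5 at an unadjusted p under 0.05, and 1 by DESeq2, Mrpl11). Mrpl41 rose in astrocyte-like nuclei, at 131, 100 and 98.9 CPM after sevoflurane, against 58.4, 47.9 and 73.3 CPM with oxygen (0.87, SE 0.164, edgeR adjusted p 0.0081). It was not called without oxygen replicate 1 or 2 (highest adjusted p 0.0863). Assembly factors of the complexes had 30 of 44 above 0 over all nuclei (median 0.0817), with 0 called by edgeR or DESeq2 (2 at an unadjusted p under 0.05). In CA1 pyramidal-like nuclei 1 of 44 fell, Cox10, which makes a precursor of the haem of complex IV, at 66.6, 70.9 and 69.0 CPM after sevoflurane, against 90.6, 89.2 and 85.4 CPM with oxygen (-0.36, SE 0.0787, edgeR adjusted p 0.0354). Its libraries spread little in either group, but leaving out any 1 library ended the call (adjusted p 0.0525 to 0.152), as did the span correction.

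Genes of mitochondrial transcription and biogenesis had 8 of 20 above 0 over all nuclei (median -0.03), with 0 called (2 at an unadjusted p under 0.05, and 1 by DESeq2, Ppargc1a). Polg, the polymerase of mitochondrial DNA, fell in oligodendrocyte precursor-like nuclei, at 100, 100 and 111 CPM after sevoflurane, against 138, 180 and 158 CPM with oxygen (-0.62, SE 0.156, edgeR adjusted p 0.0402). Without sevoflurane replicate 1 or 2 or oxygen replicate 2 or 3 it was not called (highest adjusted p 0.338), nor in DESeq2. Genes of the tricarboxylic acid cycle had 10 of 17 above 0 (median 0.0458) and those of glycolysis 10 of 18 (median 0.0477), with 0 called in either list over all nuclei (2 and 3 at an unadjusted p under 0.05, and 0 and 1 by DESeq2, Pfkp). Ogdh, a subunit of the 2-oxoglutarate dehydrogenase, rose in dentate granule-like nuclei, at 109, 112 and 115 CPM after sevoflurane, against 94.7, 92.6 and 95.9 CPM with oxygen (0.25, edgeR adjusted p 0.0494). Suclg2, a subunit of succinate-CoA ligase, rose in CA1 pyramidal-like nuclei (0.78, edgeR adjusted p 0.0447), at 12.2, 10.7 and 11.2 CPM after sevoflurane, against 5.34, 6.82 and 7.55 CPM with oxygen. Neither call held when any 1 library was left out (adjusted p 0.0642 to 0.188 for Ogdh and 0.0732 to 0.174 for Suclg2), or in DESeq2. Of 14 uncoupling and antioxidant genes, 11 were above 0 and 1 fell over all nuclei: Slc25a27, a mitochondrial carrier of the brain also known as uncoupling protein UCP4. It was at 73.1, 68.4 and 65.9 CPM after sevoflurane, against 83.3, 86.1 and 88.7 CPM with oxygen (-0.32, SE 0.058, edgeR adjusted p 0.0426). It fell most in oligodendrocyte-like nuclei, at 119, 141 and 130 CPM after sevoflurane, against 194, 205 and 221 CPM with oxygen (-0.67, SE 0.114, edgeR adjusted p 0.0153), and it also fell in dentate granule-like nuclei (-0.45, edgeR adjusted p 0.0111). In each of these 3 sets of nuclei every sevoflurane library lay below every oxygen library. Over all nuclei the call held without sevoflurane replicate 1 (adjusted p 0.045) and was lost without any 1 of the others (adjusted p 0.0824 to 0.143). In oligodendrocyte-like nuclei it was lost without any 1 oxygen library (highest adjusted p 0.103), and in dentate granule-like nuclei without oxygen replicate 2 or 3 (highest adjusted p 0.0617). Apart from these, Rpl23 and Rpl21 in oligodendrocyte precursor-like nuclei and Rpsa in Cajal-Retzius-like nuclei, whose groups lie mostly in different clusters, were called, each higher after sevoflurane. DESeq2 called none of them there, and Rpl23 and Rpl21 were not called with the span correction. Of 15 alternatives, Rpl23 lost its call in 6, Rpl21 in 8 and Rpsa in 8. With 1 library left out, the highest edgeR adjusted p was 0.128, 0.217 and 0.128 in that order.

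Across classes, the members' summed level was lowest in the excitatory classes with the most UMIs per nucleus. The mean over the 6 libraries was 2515 ± 303 CPM in CA2 pyramidal-like nuclei (median 14722 UMIs per nucleus), 2608 ± 307 CPM in CA3 pyramidal-like (14247 UMIs) and 2701 ± 375 CPM in hilar mossy-like nuclei (14558 UMIs). These SDs (n = 6) hold differences between libraries that the classes share. They do not measure how classes differ, and such differences were not tested. The mean was 3053 ± 397 CPM in CA1 pyramidal-like, 3100 ± 358 CPM in subicular or cortical excitatory-like, 3533 ± 420 CPM in inhibitory-like and 3765 ± 541 CPM in dentate granule-like nuclei, with medians of 7040 to 9726 UMIs. Glial and vascular classes stood higher: 5985 CPM in oligodendrocyte precursor-like, 7341 CPM in astrocyte-like, 8131 CPM in oligodendrocyte-like, 9701 CPM in microglia-like and 10105 CPM in endothelial-like nuclei, with medians of 2049 to 3505 UMIs. The neuronal Cajal-Retzius-like nuclei were among these levels, at 6681 CPM (3617 UMIs), as were ependymal-like nuclei, at 6707 CPM (3546 UMIs). Endothelial-like nuclei held a median of 3077 UMIs and oligodendrocyte-like nuclei 2282. Cluster 3, at a median of 770 UMIs, stood at 21317 CPM. The 88 macrophage-like nuclei (2035 UMIs) stood at 29068 CPM, against 9701 CPM in microglia-like nuclei (2049 UMIs). A part of depth in the order of classes was not tested. The mitochondrial coding genes had another order, with 20670 CPM in ependymal-like and 17114 CPM in endothelial-like nuclei as the highest of the tested classes and 2218 to 2801 CPM in CA1, CA2 and CA3 pyramidal-like and in subicular or cortical excitatory-like nuclei.

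**Figure D3:**
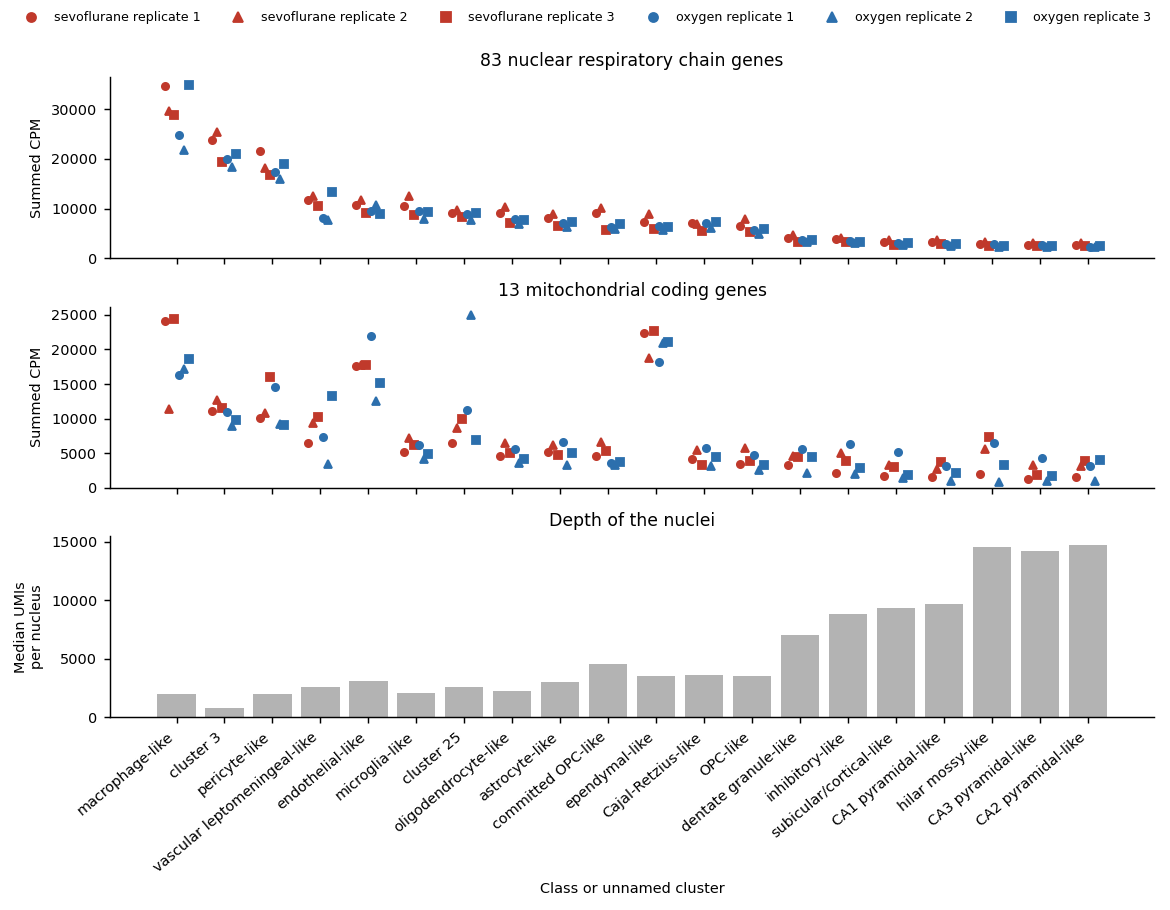
Summed CPM of the 83 members (top) and of the 13 mitochondrial coding genes (middle) per library in each named class and in clusters 3 and 25, and the median UMIs per nucleus (bottom, bars from 0), ordered by the members' mean. The members' level runs from 29068 CPM in macrophage-like nuclei (88 nuclei) to 2515 CPM in CA2 pyramidal-like nuclei, whose median depth was 14722 UMIs.

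Several isoforms of complex IV had different levels by class, given here as means over the 6 libraries of both treatments. Cox4i2, an isoform of subunit 4 known for its response to low oxygen (chr2:152754173-152765037), averaged 132.5 CPM in pericyte-like nuclei (49.5 to 334.6 CPM over 6 libraries) and 46.3 CPM in endothelial-like nuclei (26.6 to 64.1 CPM). It was at 13.01 CPM in the 88 macrophage-like nuclei and at most at 2.03 CPM in every other class. In endothelial-like nuclei it made 0.459% of the members' total, against 0.0303% in the next tested class, and it was above that class in 6 of 6 libraries. Pericyte-like nuclei were not among the tested classes. Rgs5, of the pericyte marker list, was among the leading genes of the endothelial-like cluster, and a part of pericytes in its values was not tested. Cox6b2 averaged 45.3 CPM in vascular leptomeningeal-like (10.4 to 78.2 CPM), 17.6 CPM in ependymal-like and 14.1 CPM in astrocyte-like nuclei (8.81 to 18.5 CPM), and 0 to 0.83 CPM in excitatory and inhibitory neuron classes other than Cajal-Retzius-like nuclei. Those averaged 6.01 CPM (0 to 21.1 CPM, from 0 to 3 UMIs per library). Cox7b2 averaged 18.2 CPM in astrocyte-like nuclei (7.55 to 45.0 CPM), 9.09 CPM in inhibitory-like and 7.83 CPM in dentate granule-like nuclei, against 1.67 CPM in oligodendrocyte-like nuclei. Cox6a2, the muscle isoform of subunit 6a that is also known from fast-spiking interneurons, averaged 2.6 CPM in inhibitory-like nuclei (0.975 to 5.96 CPM), against 0.64 CPM in CA1 pyramidal-like and 0.82 CPM in dentate granule-like nuclei. Oligodendrocyte-like nuclei had 4.14 CPM of it and oligodendrocyte precursor-like nuclei 4.27 CPM. The muscle and testis isoforms Cox7a1, Cox8b and Cox8c had 206, 60 and 1 UMIs of 369898539 over all nuclei, where 0 counts would allow up to 0.00811 CPM.

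**Figure D4:**
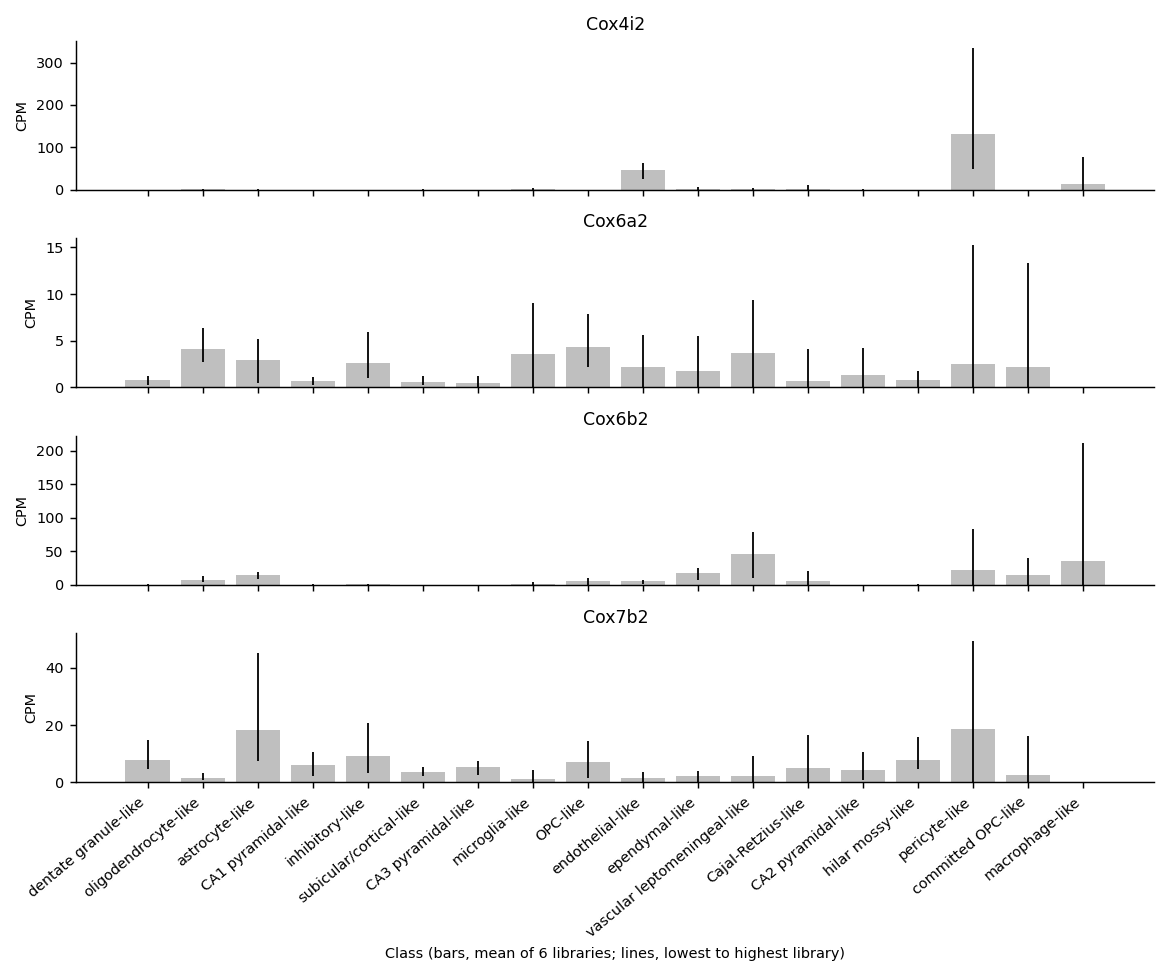
CPM of the complex IV isoforms Cox4i2, Cox6a2, Cox6b2 and Cox7b2 in each named class; bars are means of 6 libraries and lines run from the lowest to the highest library. Cox4i2 averaged 132.5 CPM in pericyte-like and 46.3 CPM in endothelial-like nuclei, and Cox7b2 18.2 CPM in astrocyte-like nuclei.

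Some members took a different share of the members' total from class to class. Ndufa10, an accessory subunit of complex I, made 2.98% of the total in CA2 pyramidal-like nuclei, against 0.788% in endothelial-like nuclei. Ndufs4 made 4.08% in CA3 pyramidal-like nuclei, against 1.15% in oligodendrocyte-like nuclei. The subunit c genes Atp5g1, Atp5g2 and Atp5g3, whose products differ only in the import sequence that is removed, averaged 61.1, 42.6 and 51.6 CPM in dentate granule-like nuclei. These are values on a scale not corrected for length or capture, so levels of different genes are not compared.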

How the data were processed

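Per the file headers, the deposited matrices hold raw counts (UMIs per gene and barcode) written by Cell Ranger 7.1.0, and the submitters' processing notes name fastp and mm10. The sources used here do not give the annotation, nor whether introns or strand were used in counting. Of 53824 barcodes, those with under 500 UMIs, under 300 genes or over 5% mitochondrial UMIs were left out, as were 1253 doublets (Scrublet score above 0.31, a common threshold set after seeing the scores). Nuclei were clustered with scanpy 1.11.5 and igraph 0.11.9 (3000 variable genes, 40 components, 20 neighbours, resolution 1.0), without the members and listed genes, giving 51 clusters. Clusters were named from at least 3 markers of fixed lists.

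Counts were summed per library and class and tested with edgeR 4.0.16 (quasi-likelihood, TMM, filterByExpr) in R 4.3.3; SEs are the fold change over the root of F. Response differences between classes used limma 3.58.1 (prior count 2). DESeq2 1.42.0, other scalings and filters, a span correction, replicate blocks and leaving out libraries were alternatives. Tests were tried on simulated counts. Positions come from an mm10 (GRCm38) annotation, matched for 32235 of 32285 genes.

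The members and gene lists were chosen with earlier results of these data known. Named genes were called members, the 2 highest of each complex, the 2 largest differences either way per class (at least 10 CPM), isoform pairs, mitochondrial coding genes and called genes of the lists. Members named because groups did not overlap, or called by DESeq2, were picked after their values were seen. Libraries held 56334621 to 72636984 UMIs, which with 3 libraries a group limits precision.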

Additional observations from a re-analysis of the deposited data

How the results depend on the processing

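No called gene changed direction among the alternatives run. Uncalled sums did: the mitochondrial coding genes' ratio over all nuclei (0.049) was -0.237 to 0.499 with 1 library left out, and the members' ratio in Cajal-Retzius-like nuclei (-0.0858) was 0.315 in cluster 35 alone and -0.16 to 0.0264 with 1 library left out. Over all nuclei 0 members were called in each, except 1 in DESeq2. The count of all genes called there (426) moved more: genes called over all nuclei were 1428 in DESeq2, 225 with the span correction, 837 with equal class shares, 72 with the replicate block and 0 with the block and span correction, and 0 to 242 with 1 library left out (29 without sevoflurane replicate 2, 1 without oxygen replicate 1 and 0 without oxygen replicate 3). Over the 14 classes, members called (2) were 6 in DESeq2, 26 with no low count filter and 0 to 34 with 1 library left out. By class, DESeq2 called 4 in CA1 pyramidal-like (2), 1 in dentate granule-like (0) and 1 in inhibitory-like nuclei (0), and no low count filter gave 15 in CA1 pyramidal-like, 5 in inhibitory-like, 4 in CA3 pyramidal-like, 1 in oligodendrocyte-like and 1 in astrocyte-like nuclei. With 1 library left out the counts were 0 to 9 in CA1 pyramidal-like, 0 to 17 in dentate granule-like, 0 to 3 in inhibitory-like, 0 to 2 in oligodendrocyte precursor-like and subicular or cortical excitatory-like, and 0 to 1 in oligodendrocyte-like nuclei. Shares of all genes called per class under these settings are not given here, so these counts of members have no background beside them. The causes were not tested.

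Same-numbered libraries did not deviate together (correlations of -0.071, 0.032 and 0.039 over all nuclei), so they share only a number. With the replicate block, 1 member was called in CA1 pyramidal-like nuclei (Cox6c; Ndufb4 at 0.62, adjusted p 0.0591) and 1 in astrocyte-like nuclei (Cox7b2, lower, adjusted p 0.0244), also with the span correction. The shares of all genes called in these classes with the block are not given here. Apart from cluster 35 alone, summed levels stayed within 1 SD in each alternative, and scaling by total UMIs gave 0.264 for the members and 0.146 for the mitochondrial coding genes over all nuclei. The 136 single-gene results, called or not, had 2224 alternative values, of which 137 lost a call and 17 gained one. Most of these results were not called and had no call to lose, so 2224 is not the base for the 137 losses. Calls in single classes were lost in up to 12 of 15 alternatives (Ogdh in dentate granule-like nuclei). Doublets kept, other size factors and stricter or looser nuclei filters left members' counts within 1.5 times. Few nuclei per library limit the smaller classes.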
